A study of Homo sapiens with 6 samples.

Results

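Keratins are the intermediate filament proteins of epithelial cells. Each filament is built from pairs of one type I and one type II keratin, so the 2 types are made together and a keratin without a partner is usually degraded. Different epithelia use different sets: simple epithelium is characterised by KRT8 and KRT18, the basal layer of stratified epithelium by KRT5 and KRT14, activated epidermis by KRT6, KRT16 and KRT17, and hair and nail by their own hard keratins. In breast, luminal cells carry KRT8, KRT18 and KRT19, and basal or myoepithelial cells carry KRT5, KRT14 and KRT17, and for that reason keratins are read as lineage markers in breast tumors. Type I genes lie in a cluster on chromosome 17 and type II genes in a cluster on chromosome 12, where the type I gene KRT18 sits beside KRT8.

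The keratin genes were taken from the table of counts by their symbol, as every gene named KRT with a number and, where present, one of the letters A to C. This gave 55 of 46427 genes, 29 of type I and 26 of type II. RNA-seq libraries came from Hs578T, a triple-negative breast cancer cell line, a class defined by the lack of estrogen and progesterone receptors and of HER2 excess, and were grown in DMEM with fetal bovine serum. Cells stably carrying a control shRNA (shCTRL) or CCN3 shRNA #2 (shCCN3) gave 3 libraries each, and both lines had been made with a retroviral vector and selected with puromycin. The knockdown is therefore represented by 1 shRNA sequence in 1 cell line. Replicates are those numbered in the sample labels, which do not say that they came from separate cultures, so that the p-values measure only the spread between these samples. Bulk libraries cannot tell a change in every cell from a change in the share of cells that transcribe a gene.

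Levels are given as CPM, the counts of a gene per 1000000 counts of the library's TMM-adjusted total. Total counts lay between 56159110 and 68393177 per library, and 3 counts corresponded to between 0.0435 and 0.0540 CPM, which covers counting error only. The mRNA of CCN3 itself was 102.7, 101.9 and 98.1 CPM in the shCTRL libraries and 47.4, 47.2 and 46.5 CPM in the shCCN3 libraries, lower in every shCCN3 library (log2 fold change -1.10 with a standard error, SE, of 0.055, adjusted p = 1.34e-06 by the quasi-likelihood test of edgeR). The library of shCCN3 replicate 2 stood apart from the other libraries of its group: its chi-square statistic per degree of freedom was 37.6 against replicate 1 and 46.0 against replicate 3, while replicates 1 and 3 differed by 9.90. The labelled cell type was checked against its markers. VIM, the mesenchymal filament gene, was between 6619 and 7992 CPM in all libraries, the epithelial cadherin CDH1 was at most 0.141 CPM and was not tested, and the mean of the estrogen receptor gene ESR1 was 0.0206 CPM in shCTRL and 0.0701 CPM in shCCN3 cells. The other receptor genes of the class were detected, PGR at 2.86 and 3.80 CPM and ERBB2, which encodes HER2, at 77.9 and 78.2 CPM on average, and neither was called.

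Some keratin genes are near-copies of each other, and a read from a shared stretch cannot be assigned to 1 gene. The stretches below are shown because the results on KRT14, KRT16 and KRT17 rest on reads that must be told apart between such near-copies. They are coding sequence of exon 1 from GENCODE release 29 on GRCh38, written 5′ to 3′ along the gene, and capitals mark the positions at which the genes of a set are not all alike. For KRT14, KRT16 and KRT17, the 120 aligned bases were chosen, among coding stretches of this length that align without a gap and lie within 1 exon, as the one with the most such positions, 30. At most of these positions only KRT17 differs, and KRT14 and KRT16 differ from each other at few of them. The stretch with the fewest such positions held 7, and there KRT14 and KRT16 were identical. KRT14 is on the minus strand at chr17:41586317-41586436, KRT16 on the minus strand at chr17:41612165-41612284 and KRT17 on the minus strand at chr17:41624085-41624204.
KRT14: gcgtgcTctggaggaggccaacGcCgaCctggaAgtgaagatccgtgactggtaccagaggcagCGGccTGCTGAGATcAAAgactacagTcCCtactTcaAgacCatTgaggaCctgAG
KRT16: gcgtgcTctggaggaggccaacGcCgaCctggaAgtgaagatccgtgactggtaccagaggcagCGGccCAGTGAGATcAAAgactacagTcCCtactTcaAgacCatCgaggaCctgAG
KRT17: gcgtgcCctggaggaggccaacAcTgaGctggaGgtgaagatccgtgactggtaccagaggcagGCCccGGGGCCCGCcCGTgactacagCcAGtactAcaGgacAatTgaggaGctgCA

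Over the whole coding sequence, KRT14 was 88.5% identical to KRT16 and 84.8% identical to KRT17, and KRT81 was 93.6% identical to KRT86, with an unbroken identical run of 605 bases. Of all 100-base windows of the KRT81 transcript, 30.3% occur unchanged in the KRT86 or KRT87P transcript, and for KRT86 the share was 28.3%. The share was 6.0% for KRT14 and 7.2% for KRT16, which share windows with each other and with pseudogenes, 0.4% for KRT17 and 7.6% for KRT8, whose matches are pseudogenes. KRT34 shared 0.8% of its windows with KRT33B. For KRT7, KRT9, KRT10, KRT15, KRT18, KRT75, KRT79 and KRT80 no 100-base window occurs in another annotated transcript. How the authors' counting treated reads that match more than 1 gene is not stated, nor is the read length.

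Of the 55 keratin genes, 31 had no count in any library, 9 had a few counts but did not pass the filter on low counts, and 15 were tested. Among the 15 tested genes, 9 were higher in shCCN3 cells, 1 was lower and 5 were not called at an adjusted p of 0.05. Over all 17419 genes tested, 33.4% were called in either direction, 16.2% as higher and 17.3% as lower. In 12 of the 15 genes the 3 libraries of one group did not overlap those of the other, against 46.3% of all genes tested. The median log2 fold change was 0.99 over the 15 genes, also with KRT9 set at the lower bound given below, and 0.01 over all genes tested. However, KRT9, KRT14, KRT17 and KRT81 passed the filter only through the shCCN3 libraries and so had to differ, and these counts and medians are a description. By type, 5 of 8 tested type I genes were higher and 3 were not called, and of 7 tested type II genes 4 were higher, 1 was lower and 2 were not called.

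**Figure D1:**
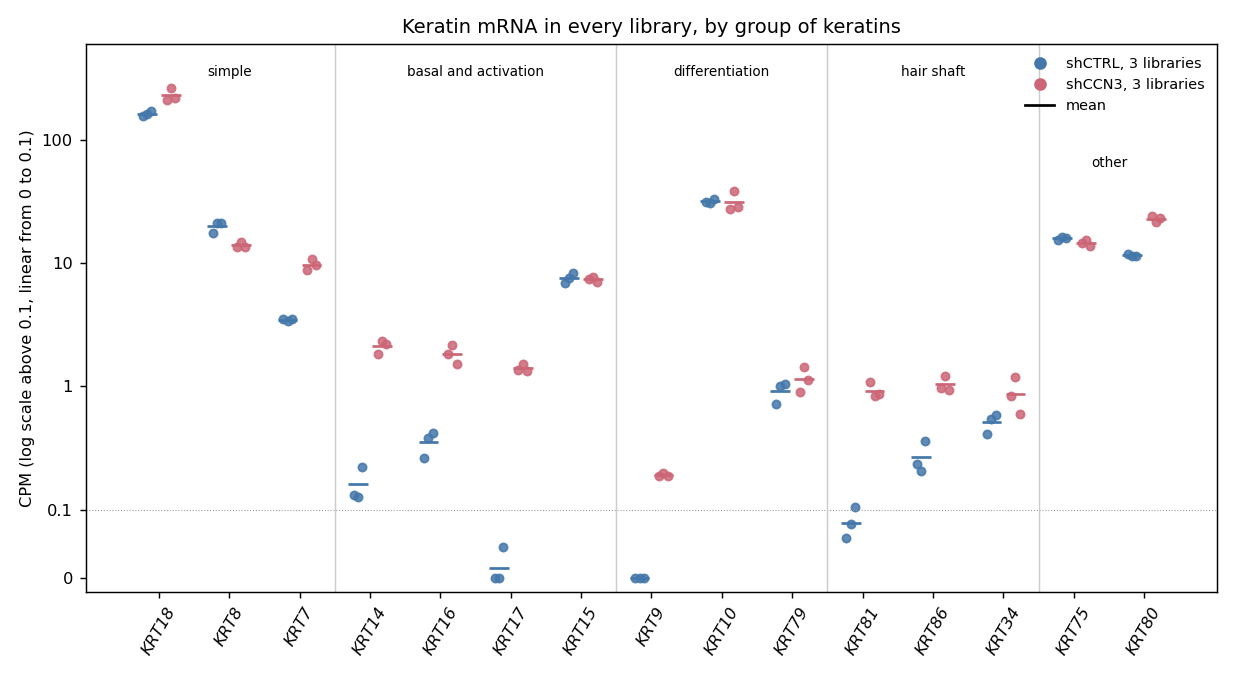
CPM of the 15 tested keratin genes in every library, on an axis that is logarithmic above 0.1 and linear from 0 to 0.1; points are libraries and lines are group means. KRT18 lies far above the other keratins in CPM in both groups, and KRT14, KRT16, KRT17, KRT9, KRT81 and KRT86 lie low in shCTRL and higher in every shCCN3 library.

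The simple epithelial keratins KRT18, KRT8 and KRT7 all changed, but not in one direction. KRT18, the type I keratin of simple epithelium, was 156.0, 161.3 and 170.9 CPM in the shCTRL libraries and 212.0, 263.1 and 219.5 CPM in the shCCN3 libraries. The groups did not overlap, and the highest value was that of shCCN3 replicate 2. The log2 fold change of KRT18 was 0.51 (SE 0.086, adjusted p = 0.00172), and it was 0.41 without shCCN3 replicate 2 (adjusted p = 0.00022).

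KRT8, the type II partner of KRT18, moved the other way. It was 17.7, 21.0 and 21.3 CPM in shCTRL libraries and 13.5, 14.7 and 13.6 CPM in shCCN3 libraries. Every shCCN3 library was below every shCTRL library, with a log2 fold change of -0.52 (SE 0.092, adjusted p = 0.00221). KRT8 was the only keratin gene called lower. The pseudogene KRT8P12 on chromosome 3 also took counts, 12.6 ± 0.389 CPM in shCTRL and 12.6 ± 2.14 CPM in shCCN3 cells (SD, n = 3 per group; log2 fold change -0.01, adjusted p = 0.978). With the counts of KRT8 and its 50 pseudogene rows added together, a choice made after the data were seen, the log2 fold change was -0.29 (SE 0.084, adjusted p = 0.028). Most of the added counts were those of KRT8P12. This pseudogene was not among the 4 found to share a 100-base window with KRT8, so the sum is not an estimate for KRT8 alone. The same sum for KRT18 left its log2 fold change at 0.51. The KRT8 and KRT18 genes also overlap on opposite strands, from 52897191 to 52949860 and from 52948855 to 52952906 of chromosome 12, and whether the counting used the strand is not stated.

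The ratio of KRT18 to KRT8 CPM, which does not depend on the library total, was 8.82, 7.69 and 8.01 in shCTRL and 15.7, 17.9 and 16.2 in shCCN3 libraries. The mean rose from 8.17 ± 0.583 to 16.6 ± 1.15 (SD, n = 3 each), 2.03 times higher, without overlap between the groups. These ratios use the rows of KRT18 and KRT8 without their pseudogenes. With pseudogene rows added, KRT18 went from 163.4 ± 7.53 to 232.5 ± 27.8 CPM and KRT8 from 33.6 ± 1.57 to 27.6 ± 2.75 CPM. The log2 fold change was -0.29 for this KRT8 sum, to which KRT8P12 added most of the counts, and -0.52 for the KRT8 row alone. Since each ratio divides CPM by CPM, its size also reflects the lengths of the transcripts, and only its change between groups is compared.

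KRT7, a type II keratin of simple and glandular epithelium, was 3.54, 3.38 and 3.55 CPM in shCTRL and 8.87, 10.8 and 9.57 CPM in shCCN3 libraries. It was 2.79-fold higher in shCCN3 cells, with a log2 fold change of 1.48 (SE 0.108, adjusted p = 1.11e-05). The other simple keratins were hardly detected. KRT19, a luminal type I keratin, had 12, 9 and 0 counts in shCTRL and 5, 11 and 8 counts in shCCN3 libraries, and KRT20, a keratin of intestinal epithelium, had 2 counts in 1 shCCN3 library. Neither was tested.

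**Figure D2:**
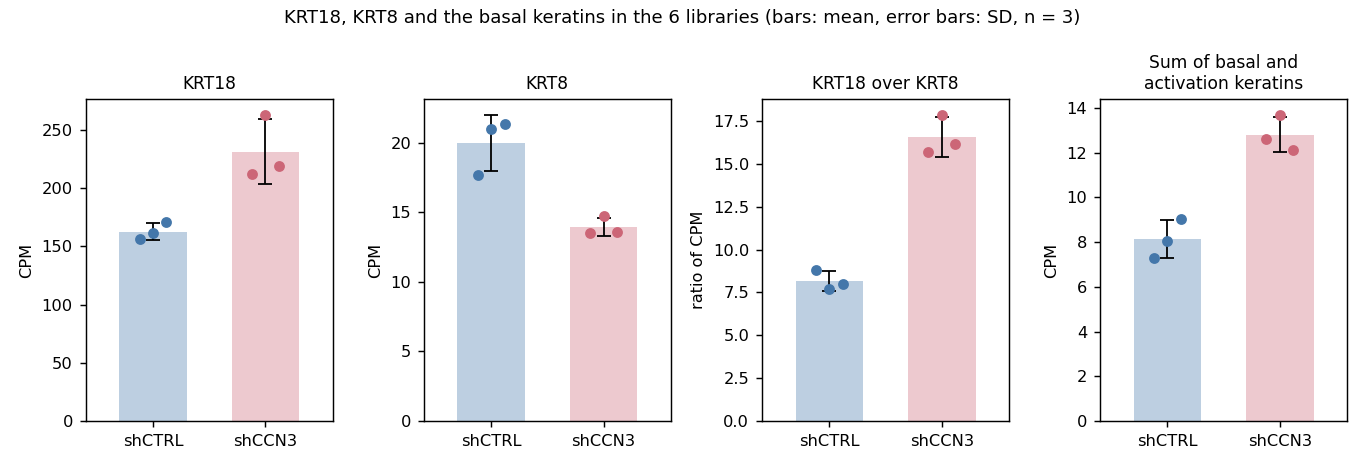
Levels per library (points), group means (bars) and SD (error bars, n = 3) of KRT18, KRT8, the ratio of KRT18 to KRT8 and the sum of the basal and activation keratins, each from 0. KRT18 and KRT8 moved in opposite directions, and the ratio, taken without pseudogene rows, went from 8.17 to 16.6.

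Among the basal and activation keratins, KRT14, KRT16 and KRT17 rose from a low level, while KRT15 did not pass the test. KRT14, the type I keratin of the basal layer, had 9, 8 and 15 counts in shCTRL libraries and 125, 129 and 140 counts in shCCN3 libraries, that is, 0.131, 0.127 and 0.224 CPM against 1.81, 2.32 and 2.19 CPM. The lowest shCCN3 library was well above the highest shCTRL library. The log2 fold change of KRT14 was 3.69 (SE 0.271, adjusted p = 1.14e-05).

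KRT16, a type I keratin induced in wounded and hyperproliferative epidermis, had 18, 24 and 28 counts in shCTRL and 127, 120 and 97 counts in shCCN3 libraries. It was 0.354 ± 0.0814 CPM in shCTRL and 1.84 ± 0.322 CPM in shCCN3 cells (n = 3, SD), which gave a log2 difference of 2.37 (SE 0.252, adjusted p = 0.000108). KRT17, which is induced by injury and marks basal-like breast tumors, had 0, 0 and 3 counts in shCTRL and 94, 85 and 85 counts in shCCN3 libraries. Over the groups these were 3 against 264 counts, a ratio of 92.8 after scaling to library size, with an exact 95% counting interval from 31.4 to 452.7. The interval pools the libraries of each group, so it covers counting error only and not the spread between libraries. KRT17 passed the filter on low counts only through the shCCN3 libraries and so had to differ. The fitted log2 fold change of 6.37 (adjusted p = 3.78e-05) rested on the 3 counts of shCTRL replicate 3 and was 9.49 without that library, where the remaining control libraries held no count.

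With the counts of KRT14, KRT16 and KRT17 added together, the sum was 0.393, 0.509 and 0.685 CPM in shCTRL and 5.02, 6.01 and 5.03 CPM in shCCN3 libraries (log2 fold change 3.33, SE 0.206, adjusted p = 4.21e-06). This sum does not depend on how reads were divided among the 3 genes. Adding these rows was a choice made after the data were seen. KRT14 and KRT17 passed the filter on low counts only through the shCCN3 libraries and so had to differ, and the sum is a description. KRT15, another type I keratin of basal cells, was 6.91, 7.56 and 8.34 CPM in shCTRL and 7.49, 7.69 and 7.04 CPM in shCCN3 libraries, and the groups overlapped (log2 fold change -0.04, SE 0.102, adjusted p = 0.807). The type II partners of these genes were not seen at a testable level: KRT5 had no count in shCTRL and 2, 0 and 4 counts in shCCN3 libraries, KRT6A had a few counts, and KRT6B and KRT6C had none. The summed level of the basal and activation keratins went from 8.14 ± 0.864 to 12.8 ± 0.799 CPM (SD, n = 3 each), and the groups did not overlap.

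**Figure D3:**
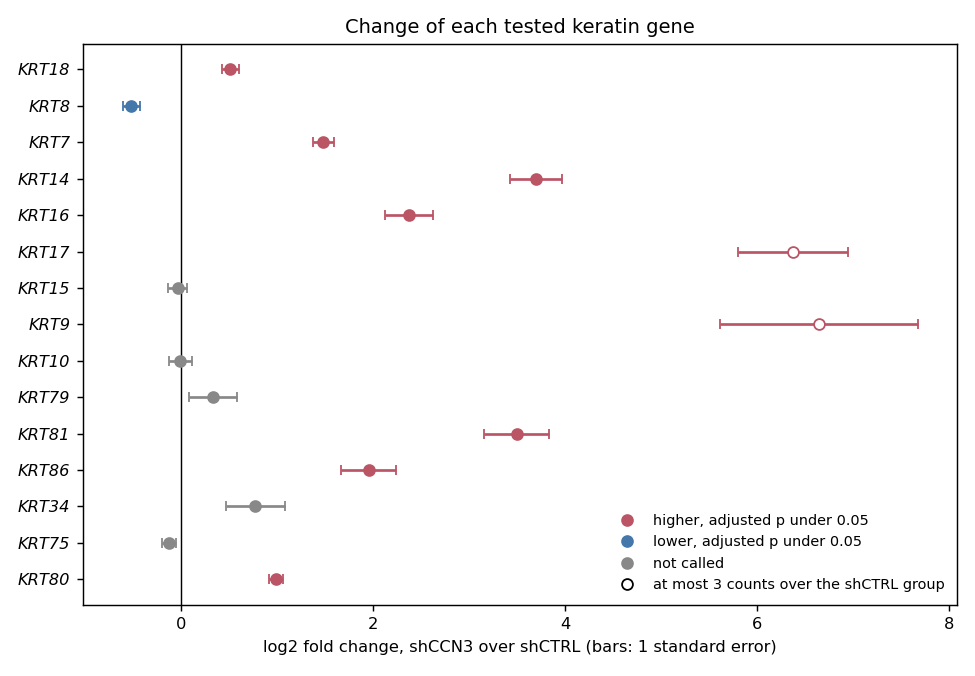
Log2 fold change of shCCN3 over shCTRL with 1 standard error for the 15 tested keratin genes; open points mark genes with at most 3 counts over the shCTRL group, whose fitted value depends on the prior count. KRT8 at -0.52 is the only gene called lower, and 9 genes are called higher.

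Of the differentiation keratins, which replace basal keratins in the upper layers of stratified epithelium, 3 of 12 were tested and 1 was called. KRT9, known from the epidermis of palm and sole, had no count in any shCTRL library and 13, 11 and 12 counts in the shCCN3 libraries. Against a floor of 3 counts over the shCTRL group it was at least 12.7-fold higher (adjusted p = 0.00236), but its level was only 0.191 ± 0.00571 CPM (SD, n = 3) in shCCN3 cells. KRT10, the type I keratin of suprabasal epidermis, was 31.0, 30.6 and 33.3 CPM in shCTRL and 27.4, 38.5 and 28.5 CPM in shCCN3 libraries. Its groups overlapped and its log2 fold change was -0.01 (SE 0.123, adjusted p = 0.955). KRT1 and KRT2, type II keratins of the same layers, had no count in any library. KRT79, a type II keratin, was 0.713, 1.00 and 1.04 CPM in shCTRL and 0.900, 1.44 and 1.13 CPM in shCCN3 libraries, with overlap (log2 fold change 0.32, SE 0.250, adjusted p = 0.363). KRT3, the type II keratin of corneal epithelium, had no count in shCTRL and 8, 3 and 0 counts in shCCN3 libraries, KRT4, a keratin of esophageal epithelium, had none and 0, 6 and 2 counts, and neither was tested.

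Among the 17 hair shaft and nail keratins, 3 were tested and 2 rose. KRT81, a type II keratin of the hair cortex, had 4, 5 and 7 counts in shCTRL and 75, 46 and 55 counts in shCCN3 libraries. Its level was 0.0807 ± 0.0231 CPM in shCTRL and 0.925 ± 0.142 CPM in shCCN3 cells (n = 3, SD), which gave a log2 difference of 3.49 (SE 0.338, adjusted p = 6.03e-05). KRT86, its near-copy, had 16, 13 and 24 counts in shCTRL and 67, 67 and 60 counts in shCCN3 libraries (log2 fold change 1.95, SE 0.287, adjusted p = 0.000754). These genes overlap on opposite strands of chromosome 12, KRT81 from 52285913 to 52291534 and KRT86 from 52274645 to 52309163. With the counts of KRT81, KRT83 and KRT86 added, the sum was 0.291, 0.287 and 0.462 CPM in shCTRL and 2.06, 2.03 and 1.83 CPM in shCCN3 libraries (log2 fold change 2.50, SE 0.238, adjusted p = 5.55e-05). Adding these rows was also a choice made after the data were seen. KRT81 passed the filter on low counts only through the shCCN3 libraries and so had to differ, and this sum is a description.

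KRT34, a type I hair keratin, was 0.408, 0.541 and 0.581 CPM in shCTRL and 0.842, 1.19 and 0.594 CPM in shCCN3 libraries. It did not pass the test (log2 fold change 0.77, SE 0.306, adjusted p = 0.0839), but without shCCN3 replicate 3 it did (0.99, adjusted p = 0.0368). KRT32 had 6, 11 and 0 counts in shCTRL and 0, 0 and 6 counts in shCCN3 libraries and was not tested, as were KRT33B and KRT83. The other 11 hair keratins had no count. Summed over the hair shaft and nail keratins, the level went from 0.944 ± 0.138 to 2.89 ± 0.337 CPM (SD, n = 3 each), without overlap.

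Of the inner root sheath and companion layer keratins only KRT75 was counted. KRT75, a type II keratin of the companion layer, was 15.5, 16.2 and 16.1 CPM in shCTRL and 14.6, 15.4 and 13.8 CPM in shCCN3 libraries. All shCCN3 values were below all shCTRL values by a small margin, and the difference did not pass the test (log2 fold change -0.13, SE 0.077, adjusted p = 0.238). KRT80, a type II keratin found at cell borders in many epithelia, was 11.8, 11.4 and 11.4 CPM in shCTRL and 23.9, 21.6 and 23.1 CPM in shCCN3 libraries. It was 1.98-fold higher in shCCN3 cells (log2 fold change 0.99, SE 0.074, adjusted p = 1.35e-05), with little spread in either group. KRT23, KRT24 and KRT222 had no count.

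To compare levels between keratin genes, CPM was divided by the length of all exons of the gene. On this scale KRT18 was the highest keratin in both groups, at 50.6 ± 2.36 CPM per kilobase in shCTRL and 72.0 ± 8.58 in shCCN3 cells (SD, n = 3 per group), followed by KRT10 at 14.8 ± 0.681 and 14.7 ± 2.86 CPM per kilobase. The third was KRT75, at 6.85 ± 0.170 and 6.27 ± 0.347 CPM per kilobase. In shCTRL cells KRT8 (2.91 ± 0.293) and KRT80 (2.65 ± 0.0557) came next and did not differ beyond their spread, while in shCCN3 cells KRT80 (5.26 ± 0.263) came before KRT7 (2.38 ± 0.234) and KRT8 (2.03 ± 0.0980). The place of KRT8 depends on the length used. The annotation joins 6.88 kilobases of exons for KRT8, and by the 1.69 kilobases of its transcript with the longest coding sequence, a choice made after the data were seen, it was at 11.9 CPM per kilobase in shCTRL and 8.26 in shCCN3 cells and ranked 3 in both.

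The summed level of the type I keratins was 195.0, 200.8 and 213.9 CPM in shCTRL and 253.0, 316.9 and 261.1 CPM in shCCN3 libraries, 1.36 times higher on average. For type II keratins it was 49.5, 53.3 and 53.9 CPM against 64.0, 66.1 and 63.0 CPM, 1.23 times higher. Neither sum overlapped between the groups, while the ratio of type I to type II overlapped, at 3.89 ± 0.106 in shCTRL and 4.30 ± 0.441 in shCCN3 cells (SD, n = 3 per group). KRT18 made up 80.1 ± 0.211% of the type I CPM in shCTRL and 83.6 ± 0.539% in shCCN3 cells. Without KRT18, the type I sum was 40.5 ± 2.13 and 45.5 ± 7.22 CPM and overlapped between the groups. Without KRT8, the type II sum was 32.2 ± 0.359 and 50.5 ± 0.982 CPM and did not. These sums were not tested.

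The tested neighbors of the keratin genes mostly did not pass the test, and over all 17419 genes tested 33.4% were called. Along chromosome 12, from 12 tested genes before KRT80 to 12 tested genes after KRT18, 6 of 8 tested keratin genes were called, 5 higher and 1 lower, and 3 of the 24 other genes were called, with a median log2 fold change of 0.08. Along the chromosome 17 span from KRT10 to KRT17 with 12 tested genes on each side, 4 of 7 keratin genes were called, all of them higher, and 7 of the 27 other genes were called, 4 higher and 3 lower, with a median of -0.02. The median over all tested genes was 0.04 on chromosome 12 and 0.01 on chromosome 17. On chromosome 17 the 4 called genes, KRT9, KRT14, KRT16 and KRT17, follow each other among the tested genes, from 41565836 to 41624575. KRT15, the tested gene before KRT9, was not called. However, KRT9, KRT14 and KRT17, and KRT81 on chromosome 12, passed the filter only through the shCCN3 libraries and so had to differ. The counts of called keratin genes and their order along the chromosome are therefore a description. The 12 tested genes on either side cover the chromosome only as far as genes were expressed.

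**Figure D4:**
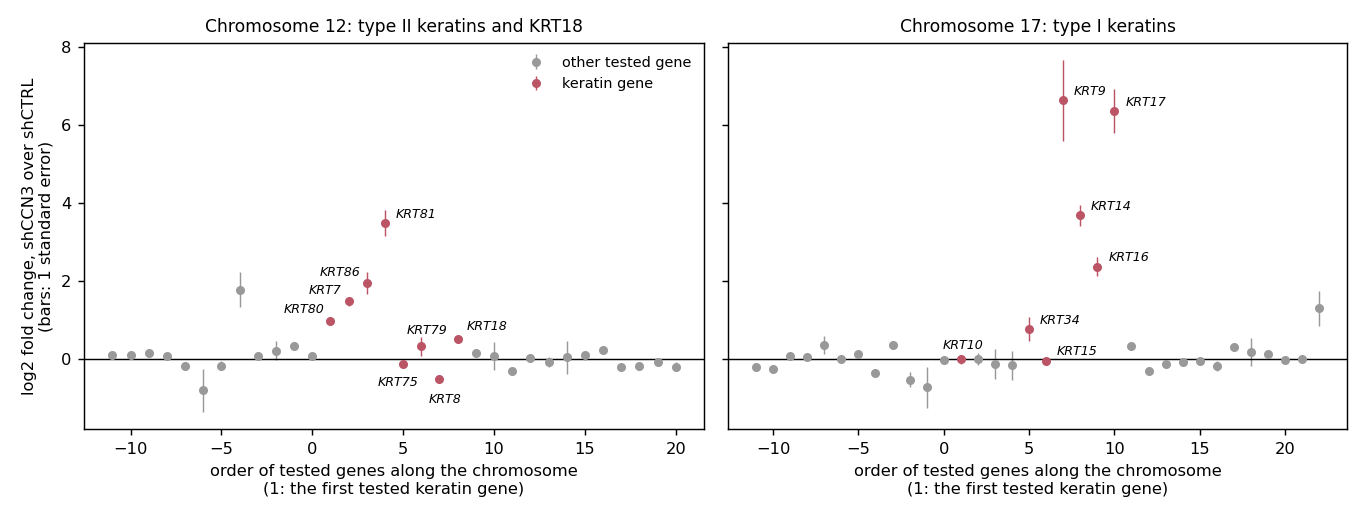
Log2 fold change of shCCN3 over shCTRL, with 1 standard error, for tested genes in their order along chromosomes 12 and 17 around the keratin clusters. Keratin genes (red) lie between -0.52 for KRT8 and the fitted values of KRT9 and KRT17, which depend on the prior count because their shCTRL libraries held at most 3 counts in all (KRT9 was at least 12.7-fold higher), and the other tested genes (grey) have medians of 0.08 and -0.02.

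The table also held 137 keratin pseudogenes and antisense RNAs, of which 90 had no count and 6 were tested. KRT18P5, at 0.0897 ± 0.0432 CPM in shCTRL and 0.246 ± 0.0374 CPM in shCCN3 cells (SD, n = 3 per group), was the only one called (log2 fold change 1.42, SE 0.474, adjusted p = 0.045). It had 6, 3 and 9 counts in shCTRL and 14, 15 and 17 counts in shCCN3 libraries, so it passed the filter on low counts only through the group where it was high and had to differ. KRT18P4, KRT8P33, KRT8P36 and KRT8P52 were below 1 CPM and not called. KRT7-AS, the antisense RNA of KRT7, had 6 counts in 1 shCCN3 library and none elsewhere, and KRT73-AS1 had none.

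Keratin filaments are anchored to desmosomes, cell-cell junctions whose plaque protein desmoplakin (DSP) binds the filaments, and are crosslinked by plakins. Of the 17 tested genes of plakins, desmosomal plaque and keratin-binding proteins, 6 were higher, 2 were lower and 9 were not called. Their median log2 fold change was 0.23, against 0.01 over all 17419 genes tested, of which 16.2% were called higher and 17.3% lower. DSP was 3.12, 2.88 and 2.88 CPM in shCTRL and 68.0, 51.6 and 66.4 CPM in shCCN3 libraries. The groups were far apart, with a log2 fold change of 4.39 (SE 0.126, adjusted p = 6.47e-08). The desmosomal cadherin gene DSC3 rose from 4.82 ± 0.150 to 7.26 ± 1.01 CPM (adjusted p = 0.00499). KLHL24, which encodes a ubiquitin ligase adaptor that acts on keratin 14, rose from 11.1 ± 1.19 to 17.4 ± 2.19 CPM (adjusted p = 0.002). SFN, encoding 14-3-3 sigma, a binding partner of keratin 17, was lower, at 75.0 ± 6.06 in shCTRL and 53.5 ± 7.40 CPM in shCCN3 cells (adjusted p = 0.00562), and so was MACF1, a plakin that also binds microtubules, at 247.4 ± 11.4 and 179.1 ± 21.2 CPM (adjusted p = 0.00308; SD, n = 3 each). The plakins PPL and EVPL and the plakophilins PKP1 and PKP2 were at most 0.0265 CPM on average and were not tested.

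Of the other intermediate filament genes, 7 were tested, 2 were higher, 2 were lower and 3 were not called. Their median log2 fold change was -0.23, and 33.4% of all genes tested were called. VIM was 7663, 7679 and 7992 CPM in shCTRL and 7006, 7568 and 6619 CPM in shCCN3 libraries. Its groups did not overlap, but the difference did not pass the test (log2 fold change -0.14, SE 0.058, adjusted p = 0.0961), and it did without shCCN3 replicate 2 (-0.19, adjusted p = 0.00533). NES, which encodes the filament protein nestin, fell from 1.90 ± 0.114 to 0.513 ± 0.208 CPM (SD, n = 3 each; log2 fold change -1.90, SE 0.287, adjusted p = 0.000884). The nuclear lamin gene LMNA was lower (log2 fold change -0.44, adjusted p = 0.000603). LMNB1 (0.27, adjusted p = 0.00923) and LMNB2 (0.24, adjusted p = 0.00978) were higher.

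Transcription factors of epithelial and keratin genes were not uniform: of 17 tested, 6 were higher, 4 were lower and 7 were not called. Their median log2 fold change was 0.19, and of all genes tested 16.2% were called higher and 17.3% lower. Among the lower factors, ELF5 had 21, 14 and 30 counts in shCTRL libraries and none in shCCN3 libraries. ELF5 passed the filter on low counts only through the shCTRL libraries and so had to differ, and these list counts are a description. KLF5, a factor of basal epithelial cells, was 4.98, 3.96 and 3.74 CPM in shCTRL and 9.81, 9.30 and 11.8 CPM in shCCN3 libraries (log2 fold change 1.28, SE 0.140, adjusted p = 0.000125). TFAP2A, the AP-2 factor of ectoderm, rose from 52.6 ± 1.61 to 90.6 ± 10.7 CPM (adjusted p = 0.00013). TP63, the master regulator of stratified epithelium, was 5.52, 6.51 and 5.57 CPM in shCTRL and 10.4, 8.69 and 10.7 CPM in shCCN3 libraries (log2 fold change 0.76, SE 0.116, adjusted p = 0.000928). In contrast, CEBPA, a factor of epidermal differentiation, fell from 2.16 ± 0.355 to 0.636 ± 0.112 CPM (adjusted p = 0.000236). The AP-1 genes FOSL1 (log2 fold change -0.48, adjusted p = 0.000499) and JUN (-0.33, adjusted p = 0.00209) were also lower.

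Of 9 tested epithelial markers other than keratins, 1 was higher, 5 were lower and 3 were not called, with a median log2 fold change of -0.49. Over all genes tested, 16.2% were called higher and 17.3% lower. CLDN4, counted among the lower markers, had 40, 56 and 53 counts in shCTRL and 12, 7 and 9 counts in shCCN3 libraries. It passed the filter on low counts only through the shCTRL libraries and so had to differ. LAMA3, which encodes a laminin chain of the basement membrane to which basal epithelial cells attach, fell from 3.67 ± 0.469 to 1.27 ± 0.197 CPM (adjusted p = 0.00016). LAMB3, another chain of the same basement membrane, fell from 125.7 ± 6.45 to 89.8 ± 2.68 CPM (adjusted p = 0.000308). ITGB4, a laminin receptor subunit of hemidesmosomes, where keratin filaments meet the basement membrane, was 6.74, 7.72 and 7.21 CPM in shCTRL and 2.71, 2.65 and 3.24 CPM in shCCN3 libraries (log2 fold change -1.33, SE 0.123, adjusted p = 4.47e-05). Of the 15 mesenchymal markers, all tested, 8 were higher, none was lower and 7 were not called, with a median of 0.80. COL1A2, counted among the higher markers, had 8, 8 and 11 counts in shCTRL and 48, 34 and 60 counts in shCCN3 libraries. It passed the filter only through the shCCN3 libraries and so had to differ. The counts and medians of both lists are therefore a description. TAGLN, an actin-binding protein of smooth muscle and myoepithelium, was 1.72, 1.88 and 3.77 CPM in shCTRL and 35.8, 43.2 and 34.0 CPM in shCCN3 libraries (log2 fold change 3.94, adjusted p = 5.67e-06). COL3A1, a fibrillar collagen gene, had a log2 value of 4.66 for this difference (adjusted p = 6.47e-08) and ACTA2, smooth muscle actin, of 2.25 (adjusted p = 6.5e-05).

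**Figure D5:**
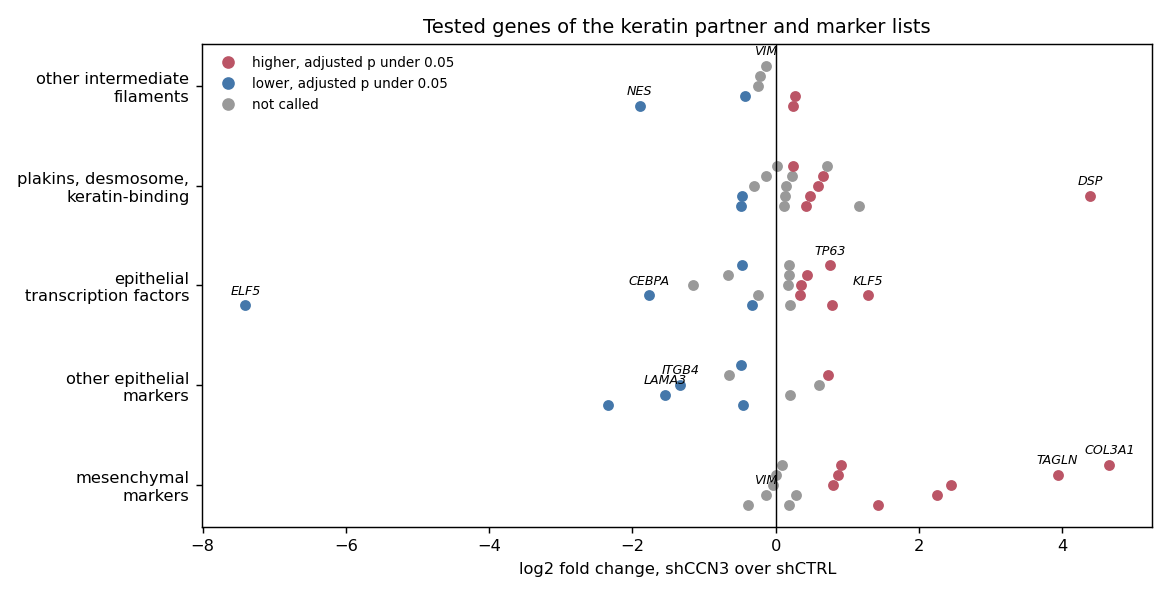
Log2 fold change of shCCN3 over shCTRL for tested genes of 5 lists around the keratins; each point is a gene, colored by its call. DSP stands at 4.39, epithelial markers other than keratins have a median of -0.49 and mesenchymal markers of 0.80. ELF5, named after its values were seen, had 65 counts over the shCTRL libraries and 0 over the shCCN3 libraries. It was at least 20.6-fold lower against a floor of 3 counts and is drawn at its fitted value. ELF5 and CLDN4 passed the filter only through shCTRL and COL1A2 only through shCCN3, so they had to differ.

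Markers of other cell types that could carry keratin RNA into a library were counted in each. Of 9 genes of differentiated keratinocytes, which mark skin RNA from handling, 8 had no count in any library, among them filaggrin (FLG) and loricrin (LORICRIN), and their summed level reached 0.0435 CPM in 1 shCCN3 library. Of 4 tested luminal markers none was called, and the summed level of the list was 79.1 to 89.8 CPM in shCTRL and 84.3 to 87.3 CPM in shCCN3 libraries. Most of this sum was ERBB2, at 77.9 CPM in shCTRL and 78.2 CPM in shCCN3 cells on average, so the sum mainly follows that gene. Of 4 tested myoepithelial markers, 3 were higher and 1 was lower, with a summed level of 24.8 to 27.6 CPM in shCTRL and 27.6 to 31.3 CPM in shCCN3 libraries. Among these, TP63, ACTA2 and the oxytocin receptor gene OXTR rose and MME fell, while the smooth muscle genes MYH11 and CNN1 were at most 0.0915 CPM on average. Their part in the rise of KRT14 and KRT17 was not tested. Of 2 tested leukocyte and 2 tested endothelial markers none was called, with summed levels of at most 0.828 and 5.41 CPM in any library. Among all genes tested, 33.4% were called, so these short lists of markers are a description.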

How the data were processed

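RNA of Hs578T shCTRL and shCCN3 #2 cells was isolated with TRIzol, and libraries were made by the authors with a stranded mRNA kit and sequenced on a NovaSeq instrument. The deposited file holds raw read counts per gene for 46427 genes, by NCBI Gene ID and symbol, without normalization. The submitters' processing notes name bcl2fastq 2.20.0, Trimmomatic, HISAT2 2.1.0, StringTie 2.1.3d, DESeq2 and GRCh38, with no role or order. The annotation, the strand setting and the treatment of reads with several matches are not given in the sources used here, so values of overlapping or near-identical genes are uncertain.

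These counts were analysed in edgeR 4.0.16 (R 4.3.3). After TMM scaling and the low-count filter by group, 17419 genes were fitted without a block. Quasi-likelihood p-values were adjusted by Benjamini-Hochberg over all 17419 genes. All adjusted p-values come from this fit unless another setting is named. For 3 libraries against 3, an exact two-sided permutation test cannot go below p = 0.1. Keratin genes were described with every library where called or at 1 CPM or more. From each list, up to 3 called genes per direction at 1 CPM or more, plus VIM, CDH1, TP63 and DSP, were named; 1 gene that this rule names is not reported here. The keratin genes, lists and tests were chosen with earlier results of these data known. ELF5, CLDN4 and COL1A2 were named outside the naming rule, because they passed the filter only through the group where they were high. Gene positions came from the RefSeq table (GRCh38.p14), which matched 44698 Gene IDs, and sequences and lengths from GENCODE release 29. Alternatives were DESeq2 size factors, upper-quartile normalization, 2 other filters, DESeq2 1.42.0, limma-voom (limma 3.58.1), a replicate block and each library left out. Scripts were tested on simulated data first.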

Additional observations from a re-analysis of the deposited data

How the results depend on the processing

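The count of 10 called keratin genes, 9 higher and 1 lower, was the same with DESeq2 size factors, upper-quartile normalization, no filter, DESeq2, limma-voom and a replicate block (10 genes each), and was 10 to 11 with each library left out in turn. With at least 10 counts in every library it was 6, of which 5 were higher, because KRT9, KRT14, KRT17 and KRT81 then left the test. Each of the 10 called genes kept its direction and its call under every alternative that tested it. KRT9, KRT14, KRT17 and KRT81 passed the filter on low counts only through the shCCN3 libraries and so had to differ. For these genes the unchanged calls are a description only. KRT10, not called, changed sign to 0.028 without shCTRL replicate 3, 0.080 without shCCN3 replicate 1 and 0.055 without shCCN3 replicate 3, and KRT15, not called, to 0.034 without shCTRL replicate 3; the cause was not tested. With single libraries left out, KRT10 ranged from -0.18 to 0.080 and KRT15 from -0.10 to 0.034. Over all genes, the number called lay between 4181 and 7229, the latter without shCCN3 replicate 2. The replicate numbers are shared between groups, but the deviations of same-numbered libraries from their group means correlated at 0.149, -0.073 and -0.259, so the numbers were not taken to pair the samples. With the replicate block, LMNB2 had an adjusted p of 0.0523, and no keratin call changed. Summed type I CPM was 1.27 to 1.42 times higher and type II CPM 1.20 to 1.25 times higher in shCCN3 cells when single libraries were removed. Depth limits the 9 keratin genes that had counts but did not pass the filter on low counts, whose changes were not tested.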
